A study of Mus musculus with 12 samples.

Results

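The genes described here encode the proteins of the cytosolic ribosome. They were chosen by name, as protein-coding mouse genes whose symbols begin with Rpl or Rps and a digit, with Rpsa and the Rplp genes added, and without -ps pseudogenes, the Rps6k kinases and Rps19bp1. The annotation holds 85 such genes, of which 81 are among the 13951 genes of the table, 49 of the large ribosomal subunit and 32 of the small one. Rps27, Rpl10l, Rpl39l and Rpl3l are not among the genes analysed here. All 81 passed the filter on low values and are among the 13858 genes tested.

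Polyadenylated RNA was sequenced from the ventral portion of the right hippocampus of 12 C57BL/6J mice aged 12 to 16 weeks. There were 3 Angelman syndrome (AS) females, 3 wild-type (WT) females, 3 AS males and 3 WT males, with 1 library per mouse. In people, Angelman syndrome arises when the maternally inherited UBE3A gene, which encodes a ubiquitin ligase, is lost, and the labels do not state which mutation the AS mice carry. The design asks how AS and WT mice differ in each sex.

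The ribosome is the particle that translates messenger RNA into protein. Its small subunit reads the message, its large subunit joins the amino acids, and each subunit is a scaffold of ribosomal RNA carrying many small proteins, most of them present as a single copy per particle. Genes for these proteins are transcribed at high rates in nearly every cell, neurons included, and many of their messenger RNAs begin with a run of pyrimidines (C or T), the terminal oligopyrimidine tract, through which growth signals are known to control their translation. Their short, abundant messages have also been copied back into mammalian genomes many times, leaving intronless retrocopies that resemble the spliced parent gene.

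Runs of pyrimidines at annotated starts are shown for the most abundant members with an entry, as the 30 bases around each start. Rps27 follows, added after the values were seen because of its copy described below. Sequences are from RefSeq on GRCm38.p6, read 5′ to 3′ on the gene's strand, from 10 bases before the start onward. Capitals mark a run of at least 5 pyrimidines that opens with C within 5 bases of the start.
Rpl13a, chr7:45128726-45128755, minus strand: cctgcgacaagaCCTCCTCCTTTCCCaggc
Rps27rt, chr9:114982720-114982749, minus strand: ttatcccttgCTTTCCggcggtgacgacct
Rps24, chr14:24490668-24490697, plus strand: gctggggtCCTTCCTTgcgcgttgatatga
Rps24, further start, chr14:24490743-24490772, plus strand: cgccgtagccatcatggtgagtctcctcgg
Rps15, chr10:80292421-80292450, plus strand: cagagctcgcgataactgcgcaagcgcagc
Rpl26, chr11:68901556-68901585, plus strand: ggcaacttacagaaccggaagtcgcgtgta
Rps21, chr2:180257369-180257398, plus strand: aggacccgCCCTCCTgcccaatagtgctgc
Rps21, further start, chr2:180257439-180257468, plus strand: agtgagcaggtaggcctcggtgcgggctgt
Rpl41, chr10:128549149-128549178, minus strand: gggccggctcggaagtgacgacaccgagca
Rpl38, chr11:114668570-114668599, plus strand: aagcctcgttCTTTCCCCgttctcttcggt
Rps27, chr3:90213629-90213658, minus strand: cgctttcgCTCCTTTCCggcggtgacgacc

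No such run was found at the starts of Rps15, Rpl26 and Rpl41 or at the further starts of Rps24 and Rps21. In the GENCODE annotation Rps15 begins at chr10:80292453, Rpl26 at chr11:68901583 and Rpl41 at chr10:128549305, away from these starts. Members with a marked run could also begin elsewhere in GENCODE, Rps24 at chr14:24487125, Rpl38 at chr11:114668524 and Rpl13a at chr7:45128761. Such an offset thus does not separate starts with a run from starts without. A missing run at 1 annotated start does not show that a message lacks the tract. Of the 81 members, 61 matched the promoter table, with 72 annotated starts between them. A run that opened exactly at the annotated start was present at 18.1% of these starts, against 2.51% of all 32851 starts in the table, and a run opening within 5 bases on either side was present at 43.1% against 18.3%. In the 300 bases from 250 before to 50 after the start, searched on both strands, CCGGAAG (the core bound by ETS factors) was found at 36.1% of member starts against 8.86% of all. TCTCGCGA was found at 16.7% against 0.995%, AAGATGGC (the YY1 core) at 9.72% against 2.75%, the GC box GGGCGG at 62.5% against 35.7%, and the E box CACGTG at 11.1% against 7.15%. None of these letter strings contains another. A match describes the letters in the window, not binding.

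The transcripts were short and abundant. Their annotated length had a median of 886 bases, against 2950 over all genes tested, and 78 of 81 were shorter than that overall median. Levels are given as log2(abundance + 1), an abundance being an RSEM estimate that takes account of transcript length. The median member stood at a mean level of 7.98 over the 12 libraries, against 3.77 for all genes tested, and 79 of 81 members stood above the overall median. Together the members made up between 3.60% and 4.26% of the summed abundance of a library. The depth of the libraries is unknown, since the table holds no counts.

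Members nevertheless differed widely in level, although most ribosomal proteins are present as a single copy per particle. The highest was Rplp1, a protein of the acidic stalk that recruits elongation factors, at a mean level of 10.05, followed by Rpl13a at 9.47, Rps27rt at 9.45, Rps24 at 9.31 and Rps15 at 9.28. The lowest was Rps6, whose protein is the best-known phosphorylated ribosomal protein, at 3.71. Rpl27 stood at 3.73, Rpl12 of the stalk base at 4.11, Rpl7l1, a relative of Rpl7, at 4.29, and Rpl31, a protein near the exit tunnel, at 4.30. Small-subunit members had a median level of 8.15 and large-subunit members one of 7.92.

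Most of the lowest members shared their coding sequence with an intronless copy that stood higher. A copy was counted where another annotated transcript matched at least 80% of a member's coding sequence at 90% identity or more. By that rule 77 of 81 members had an annotated copy, with a median of 9 each, and 44 members had at least 1 of 63 copies in the table. Of those 63 copies, 59 had a single exon, whereas members had a median of 5 exons. Gm10275, Gm11380 and Rpl37rt had up to 2 exons. The remaining copy, Uimc1, is a protein-coding gene of up to 15 exons with a transcript that matched Rpl29. It is not a retrocopy by its exons, and its whole abundance entered the Rpl29 sum. In 16 members the mean level lay below that of a copy, and this held for 8 of the 10 lowest.

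Rps6 had a mean level of 3.71, while Rps6-ps4, with an identical coding match, stood at 8.71. Rpl31 stood at 4.30 and Rpl31-ps8 at 9.43. Rpl12 stood at 4.11 and its copy Gm10275, annotated with up to 2 exons, at 8.24. Each of these copies was higher than its member in 12 of 12 libraries. The same held for Rpl10a (4.64) and Rpl10a-ps1 (7.66), Rpl28 (4.75) and Rpl28-ps1 (8.01), and Rpl5 (5.00), a carrier of the 5S ribosomal RNA, and Gm15500 (8.20).

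Rps27 and Rps27rt were the extreme case. Rps27 lies at chr3:90212522-90213651 with up to 5 exons and has no row in the table. Rps27rt, a single-exon gene at chr9:114982366-114982739, ranked behind only Rplp1 and Rpl13a in level. Their coding sequences are given because they are identical over 252 bases (GENCODE transcripts on GRCm38, minus strand for both genes, with no differing base to mark).
Rps27 and Rps27rt, coding sequence: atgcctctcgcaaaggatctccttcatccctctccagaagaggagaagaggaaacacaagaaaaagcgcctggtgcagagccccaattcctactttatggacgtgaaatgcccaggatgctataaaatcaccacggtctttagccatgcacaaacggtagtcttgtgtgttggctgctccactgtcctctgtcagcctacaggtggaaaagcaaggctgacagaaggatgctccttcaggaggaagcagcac

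A level of a member with such a copy is therefore uncertain, because reads from an identical stretch can be assigned to either locus. Each member was also summed with its copies before the log was taken, a step chosen after the values were seen. The spread of levels across members, as a standard deviation, was 0.866 summed and 1.44 alone. The summed median level was 8.31, and the lowest sums were those of Rpl7l1 (4.29) and Rps27l (5.00), neither of which had a copy adding to it. Rps6 reached 8.75 summed, Rpl27 8.21 and Rpl31 9.47.

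**Figure D1:**
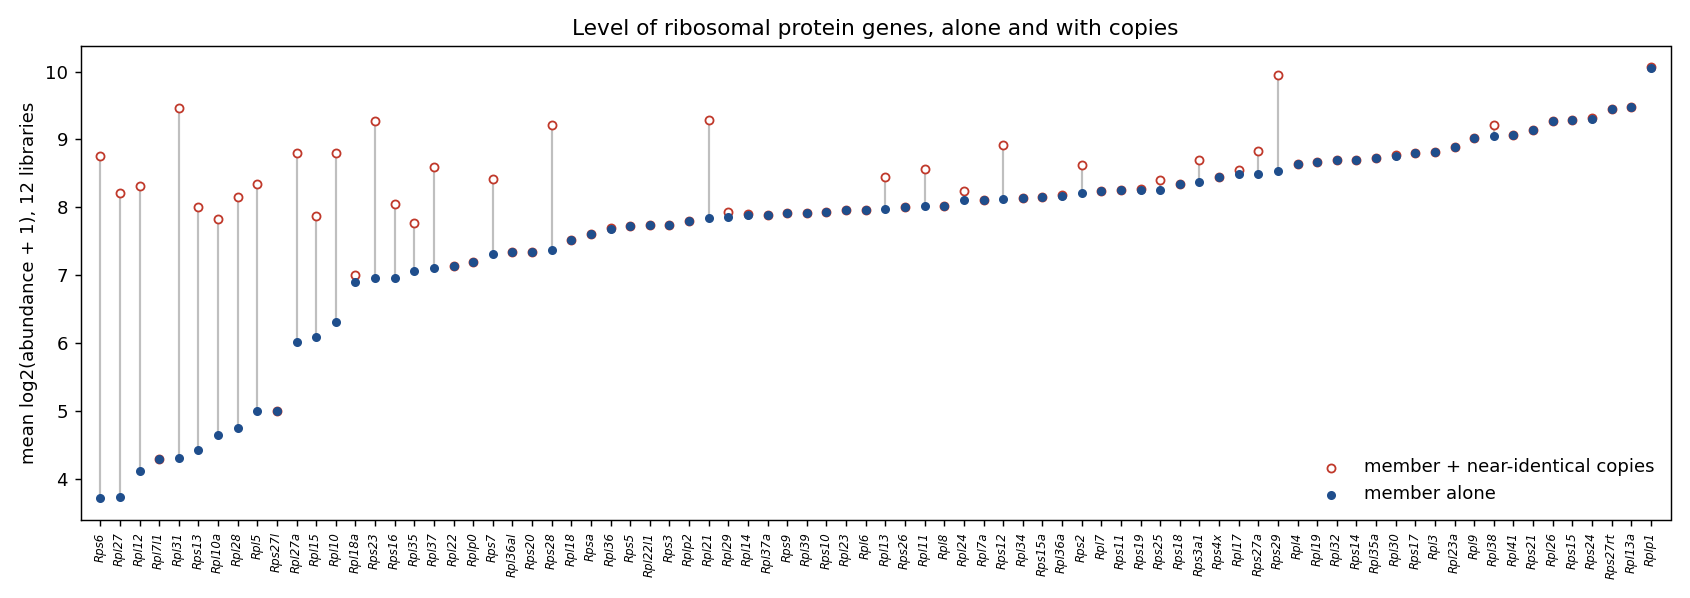
Mean level, log2(abundance + 1) over 12 libraries, of the members drawn, alone (filled) and summed with its near-identical copies (open), ordered by the level alone. The lowest member alone, Rps6 at 3.71, reaches 8.75 summed, while Rpl7l1 stays at 4.29.

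For several members the libraries fell into separate levels, and a copy held the opposite levels. Rps3a1, a small-subunit protein encoded at chr3:86137940-86142702 (minus strand), had the largest spread within groups, an SD of 0.552. It measured 8.73, 8.67 and 7.63 in AS females and 7.71, 8.72 and 8.80 in WT females. It measured 8.69, 7.78 and 8.67 in AS males and 7.82, 8.67 and 8.49 in WT males. One library in each of the 4 groups was low, and the genotypes overlapped.

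Its copy Rps3a2 measured 1.45, 1.22 and 6.86 in AS females and 6.97, 1.40 and 1.48 in WT females. In males it measured 1.56, 6.92 and 1.34 in AS and 6.89, 1.35 and 1.22 in WT. It was high in exactly the libraries in which Rps3a1 was low, and another copy, Rps3a3, was high in the same ones. Over the 12 libraries Pearson's r between Rps3a1 and Rps3a2 was -0.98. Summed with both copies, Rps3a1 ran from 8.49 to 8.81, with a within-group SD of 0.0820.

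Rps2, a small-subunit protein of the message entry channel (chr17:24718116-24721929, plus strand), measured 8.50, 8.35 and 8.48 in AS females and 8.44, 8.45 and 7.43 in WT females. It measured 8.58, 8.23 and 7.67 in AS males and 8.52, 8.46 and 7.37 in WT males. Replicate 3 of the WT females, AS males and WT males was low. Its copy Rps2-ps10 stood at 8.60, 8.77 and 8.45 in those libraries and between 0.17 and 1.65 in the other 9 (r -0.96, 12 libraries). The Rps2 sum, unlike that of Rps3a1, was higher in those 3 libraries (9.01 to 9.32) than in the others (8.24 to 8.58).

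Rps7, a small-subunit protein (chr12:28630854-28635953, minus strand), measured 7.36, 7.12 and 7.16 in AS females, 7.17, 8.01 and 7.38 in WT females, 6.39, 6.94 and 8.06 in AS males, and 7.24, 7.14 and 7.77 in WT males. Its copy Gm6472 was low in the 3 libraries in which Rps7 was highest, at 4.24, 5.05 and 5.53, and lay between 7.56 and 8.27 in the others (r -0.88, 12 libraries). The Rps7 sum was not level either, being lower in those 3 libraries (8.04 to 8.23) than in the others (8.37 to 8.62). Rps6 and Rpl10, whose copies were far above them, also varied less when summed. The within-group SD was 0.0592 summed and 0.337 alone for Rps6, and 0.0521 summed and 0.310 alone for Rpl10. Of the 18 members that carried under 50% of their summed abundance, 15 had a smaller within-group SD summed, and the median SD was 0.101 summed and 0.162 alone. Copies make up most of these sums, so the summed SD is mainly theirs. Whether the reads of these libraries came from the member or the copy was not tested.

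**Figure D2:**
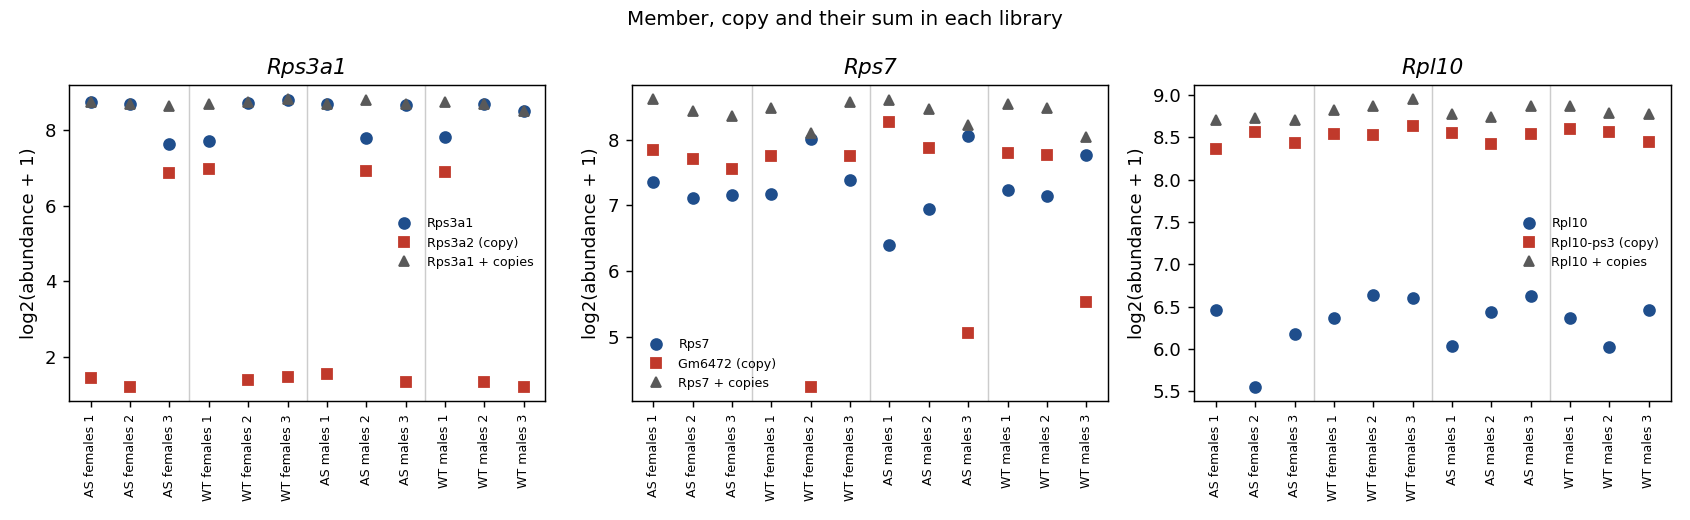
Level, log2(abundance + 1), of Rps3a1, Rps7 and Rpl10 alone (circles), of 1 copy of each (squares) and of the member summed with its copies (triangles) in each of the 12 libraries. Rps3a1 is low in the 4 libraries in which Rps3a2 is high, and its sum stays between 8.49 and 8.81.

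The 4 steadiest members all belonged to the large subunit. Rpl4, part of the wall of the exit tunnel, had a within-group SD of 0.0387, and its level lay between 8.57 and 8.70 in the 12 libraries. Rpl3, which lies near the peptidyl transferase centre, Rpl6 and Rpl9 were next. The median member had an SD of 0.109, against 0.138 for all genes tested. That comparison mixes levels, and the 497 genes at or above the members' lower quartile had a median SD of 0.101.

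Members moved together from mouse to mouse. After group means were removed, the median Pearson correlation over the 12 libraries was 0.48 across the 3240 pairs of members, and 83.2% of pairs were positive. Across pairs drawn from all genes tested the median was 0.0055. The 37 members with no copy in the table had a median of 0.64. Nuclear genes of oxidative phosphorylation, assembly factors included, had a median of 0.37, genes of the mitochondrial ribosome 0.14, initiation factors 0.049 and elongation factors 0.030. The points share their library and its normalization, and genes are not independent replicates.

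Of the 81 members, 74 correlated positively with the mean of the others. Rps13 had the lowest correlation, -0.47, followed by Rpl22l1 at -0.28 and Rpl5 at -0.19. Rps13 and Rpl5 had copies far above them, and Rpl22l1, a paralogue of Rpl22, had none in the table. Rps13 measured 4.41, 3.80 and 4.87 in AS females, 4.52, 4.52 and 4.24 in WT females, 4.54, 4.57 and 4.41 in AS males, and 4.25, 3.95 and 4.93 in WT males. No group stood apart from the others.

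**Figure D3:**
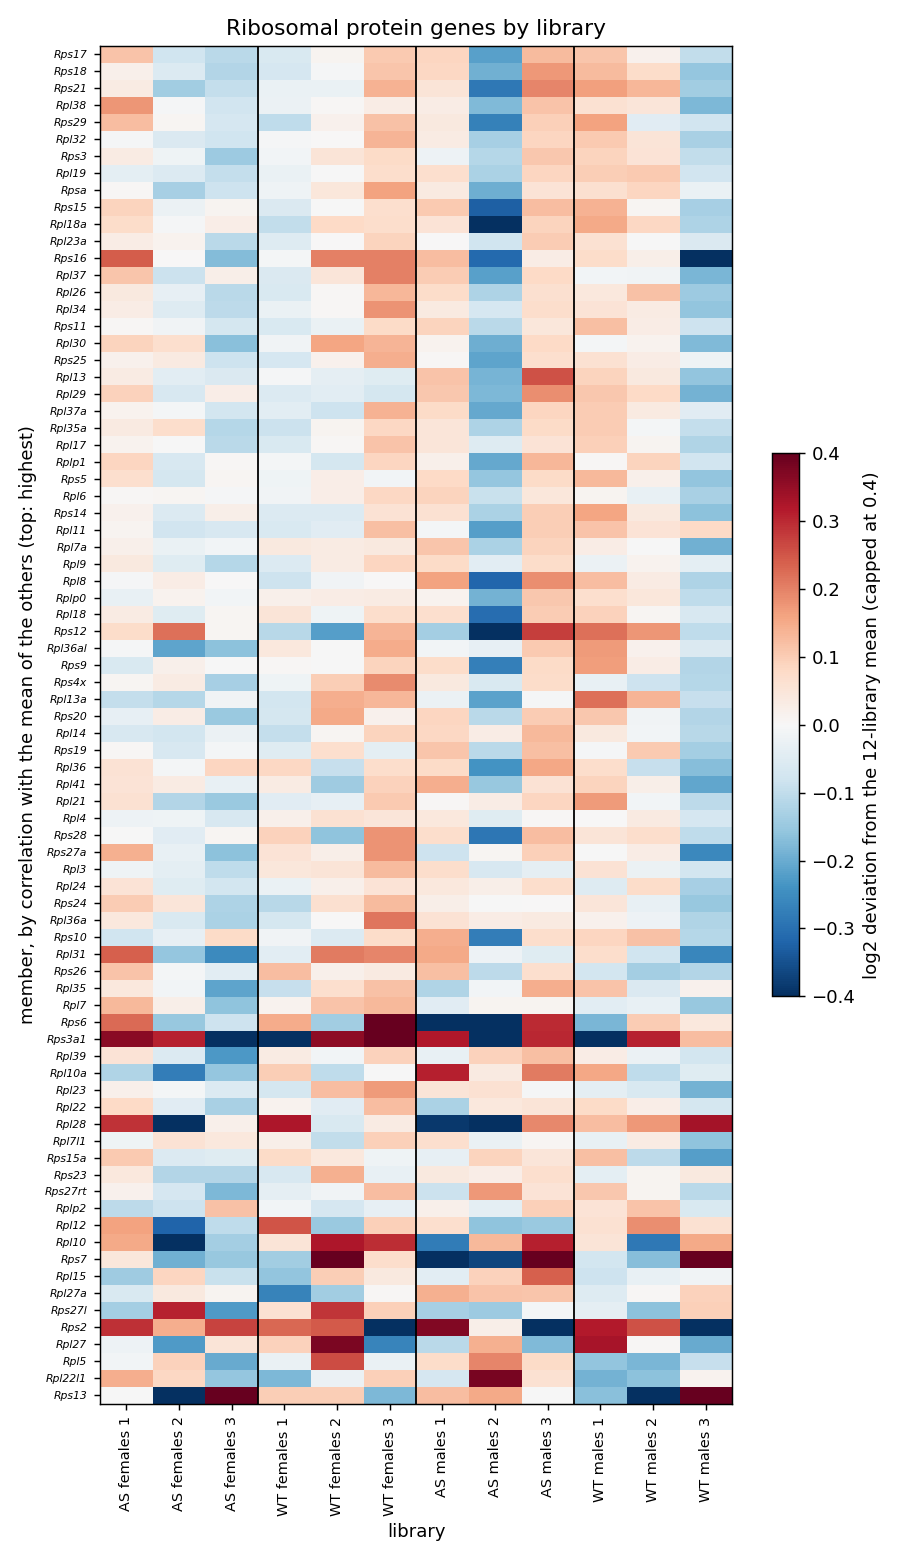
Deviation of each member drawn in each library from its own mean over the 12 libraries, in log2 units capped at 0.4, with members ordered by their correlation with the mean of the others. Columns of 1 colour, such as AS male 2 and WT male 3 (blue) and AS male 3 and WT female 3 (red), cross the groups.

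The mean level of the members was 7.68, 7.59 and 7.57 in AS females and 7.62, 7.67 and 7.72 in WT females. It was 7.66, 7.52 and 7.73 in AS males and 7.69, 7.65 and 7.55 in WT males. The genotypes overlapped in both sexes, and the lowest and the highest library of the series were both AS males. In AS male 2 only 21 members stood above their own 12-library mean, and in AS male 3 72 did. In WT male 3 the count was 13, and in WT female 3 it was 69.

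Other large sets followed the same libraries. The mean of 87 nuclear genes of oxidative phosphorylation was lowest in AS male 2 (6.51) and WT male 3 (6.52) and highest in WT female 3 (6.70), and that of 77 genes of the mitochondrial ribosome was also lowest in AS male 2 (4.74) and WT male 3 (4.75). In bulk tissue, fewer cells of a type and less RNA per cell cannot be told apart.

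**Figure D4:**
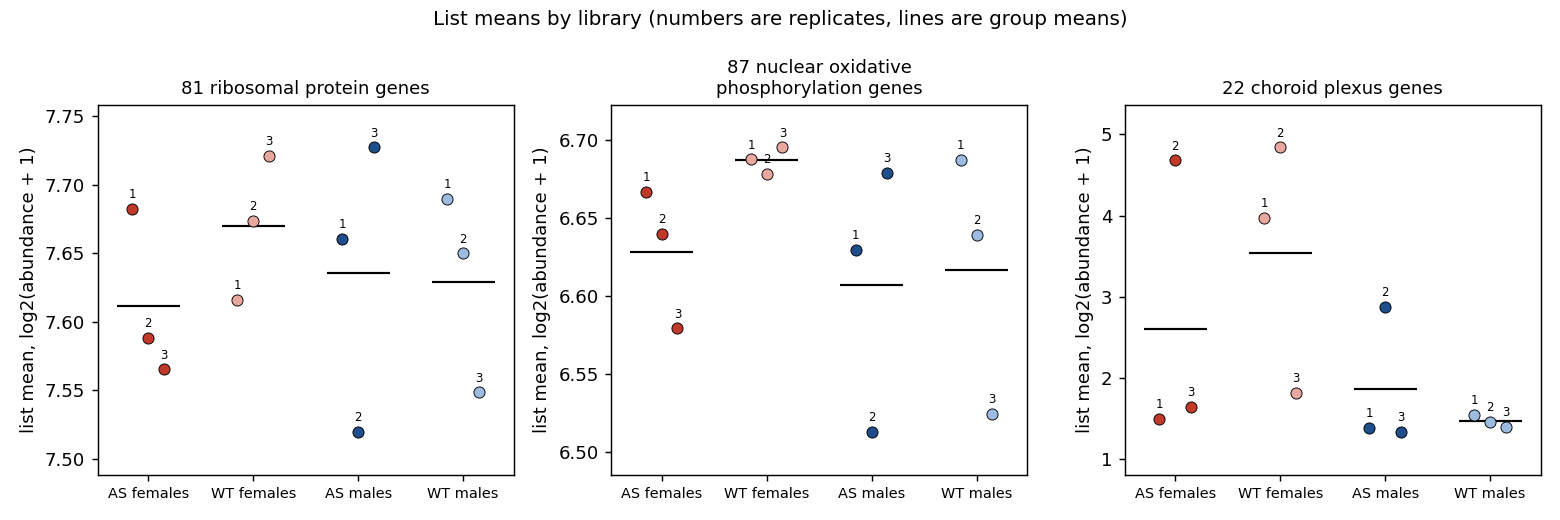
Mean level, log2(abundance + 1), of the ribosomal protein genes, of nuclear oxidative phosphorylation genes and of choroid plexus genes in each library, with group means as lines. AS male 2 and WT male 3 are lowest in both of the first panels, and the choroid plexus list is highest in WT female 2 and AS female 2.

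Before genotypes were compared, cell type markers and sex-linked genes were read beside the labels. These values do not test the AS and WT labels or the region dissected. A list of 12 excitatory neuron markers had means of 5.91 to 6.36 in the 12 libraries. Choroid plexus genes varied from library to library, with a list mean of 4.68 in AS female 2, 3.97 in WT female 1, 4.84 in WT female 2 and 2.87 in AS male 2, and of 1.33 to 1.82 in the other 8. In the library labelled WT female 1, Xist, the RNA that silences an X chromosome, measured 0.35, whereas the other 5 female libraries measured at least 6.00. The Y-linked gene Eif2s3y measured 0.68 in it, against at least 5.73 in males.

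In females, most members were slightly lower in AS than in WT mice. The difference was below 0 in 63 of 81 members, against 48.4% of all genes tested, and its median was -0.054 on the log2 scale, against 0.0048 for all genes. No member passed an adjusted p of 0.05 (limma, smallest adjusted p = 1.00), and 0% of all genes did. At an unadjusted p under 0.05 there were 2 members, 2.47%, against 3.16% of all genes. In 9 members every AS female was below every WT female, and in 0 members every AS female was above, against 4.02% and 4.99% of all genes.

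Among them were the large-subunit members Rpl36al, Rpl10a, Rpl3, Rpl32, Rpl19, Rpl4, Rpl7a and Rplp0. The direction was alike in both subunits, with 37 of 49 large-subunit and 26 of 32 small-subunit members lower. It was alike in the 37 members with no copy in the table, of which 29 were lower with a median of -0.063. Summed with copies, 64 of 81 were lower. Without the library low in Xist, WT female 1, 69 were lower with a median of -0.088, and without WT female 3, 55 were lower with a median of -0.020. With the 4 libraries richest in choroid plexus genes left out, the median was -0.13, with 1 WT female and 2 AS females left.

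The largest single difference in females was that of Rpl10, an X-linked large-subunit protein added late in assembly near the peptidyl transferase centre (chrX:74270812-74273135, plus strand). It measured 6.46, 5.55 and 6.18 in AS females and 6.36, 6.64 and 6.61 in WT females, so AS female 2 was lowest and the groups overlapped. The difference was -0.47 ± 0.22 (SE, 3 mice per group), with an unadjusted p = 0.0497 and an adjusted p = 1.00 by limma. Summed with Rpl10-ps3, which carried most of the abundance, AS females measured 8.71, 8.73 and 8.71 and WT females 8.83, 8.87 and 8.95. The summed groups did not overlap, and the difference was -0.17, a smaller one, with an unadjusted p = 0.0101 and an adjusted p = 1.00 by limma. Of all genes, 4.02% had every AS female below every WT female. Neither locus alone was without overlap, Rpl10-ps3 measuring 8.37, 8.56 and 8.44 in AS females and 8.55, 8.53 and 8.64 in WT females.

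Rpl36al, an autosomal paralogue of the X-linked Rpl36a (chr12:69182731-69184083, minus strand), measured 7.33, 7.12 and 7.17 in AS females and 7.38, 7.33 and 7.48 in WT females. Every AS female lay below every WT female, although AS female 1 and WT female 2 both round to 7.33. The difference was -0.19 ± 0.08 (limma, unadjusted p = 0.0311, adjusted p = 1.00), the largest among members with no copy in the table. Rpl36a itself overlapped, at 8.21, 8.11 and 8.04 in AS females and 8.10, 8.17 and 8.38 in WT females.

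Among the members lower in AS females, Rps7 differed by -0.31 ± 0.35 and Rps6 by -0.24 ± 0.24. Rps2 (0.33 ± 0.34) and Rps12 (0.17 ± 0.17) led the members that were higher. The errors of these 4 were as large as the differences, and each carries a copy in the table. Summed with copies, the difference was 0.085 for Rps7, -0.015 for Rps6, -0.23 for Rps2 and -0.046 for Rps12, so Rps7, Rps2 and Rps12 changed sign. Single libraries set these sums. Without WT female 3 the summed difference was -0.0018 for Rps2 and 0.0096 for Rps12, without WT female 2 it was -0.058 for Rps7, and without AS female 3 it was 0.0068 for Rps6. Rpl27a (0.13), Rpl29 (0.073) and Rpl22l1 (0.062) were the other members highest in AS females.

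In males the members were divided. The difference was below 0 in 35 of 81, against 47.6% of all genes, with a median of 0.0086, against 0.0080 for all genes. No member was called (limma, smallest adjusted p = 0.752), and 0% of all genes were. At an unadjusted p under 0.05 there were 2 members, against 6.42% of all genes. Every AS male was above every WT male in 4 members (Rpl5, Rpl23, Rpl27a and Rpl36a) and below in 0, against 6.02% and 5.18% of all genes. Single libraries set the balance: without AS male 2, 12 members were lower, without WT male 1, 20, and without WT male 3, 56 with a median of -0.040. Without AS male 1 or AS male 3 the median was also below 0, at -0.0077 and -0.034.

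Rpl28, a large-subunit protein (chr7:4792874-4795066, plus strand), had the largest difference in males. It measured 4.36, 4.11 and 4.94 in AS males and 4.87, 4.92 and 5.08 in WT males. AS males 1 and 2 lay below every WT male, and AS male 3 lay among them. The difference was -0.49 ± 0.21 (limma, unadjusted p = 0.0378, adjusted p = 0.763). Summed with Rpl28-ps1 it was -0.084, and 0.064 without AS male 2.

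Rpl5 (chr5:107900502-107909005, plus strand) measured 5.07, 5.20 and 5.08 in AS males and 4.84, 4.82 and 4.91 in WT males. Every AS male was above every WT male, by 0.26 ± 0.09 (limma, unadjusted p = 0.0176, adjusted p = 0.752). Rpl5 carried 9.61% of the abundance it shared with its copy, and the summed difference was 0.027, and -0.032 without WT male 3.

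Rpl22l1 (chr3:28805436-28807424, plus strand), with no copy in the table, measured 7.67, 8.12 and 7.80 in AS males and 7.55, 7.58 and 7.76 in WT males. AS male 2 was highest, and AS male 1 lay below WT male 3. The difference was 0.24 ± 0.12 (limma, unadjusted p = 0.0727). Its paralogue Rpl22 measured 7.00, 7.17 and 7.18 in AS males and 7.21, 7.16 and 7.06 in WT males, so the groups overlapped.

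Over both sexes, 54 of 81 members were lower in AS mice, against 47.3% of all genes, with a median of -0.020. Without AS male 2 only 30 were lower, with a median of 0.014. In 0 members did AS and WT mice fail to overlap, lower or higher, against 0.13% and 0.231% of all genes. No member was called (limma, smallest adjusted p = 0.905, 0% of all genes), and 2 reached an unadjusted p under 0.05, against 5.35% of all genes. Rpl13a (chr7:45125558-45128761, minus strand), a large-subunit protein also known for a role outside the ribosome in silencing inflammatory messages, differed by -0.16 ± 0.07, with an unadjusted p = 0.0350. It measured 9.38, 9.36 and 9.46 in AS females and 9.40, 9.62 and 9.61 in WT females, and 9.45, 9.26 and 9.47 in AS males and 9.69, 9.61 and 9.38 in WT males. The genotypes overlapped in both sexes. Rpl27a was higher by 0.12 ± 0.05 (unadjusted p = 0.0345), and its difference was -0.032 summed with its copies.

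**Figure D5:**
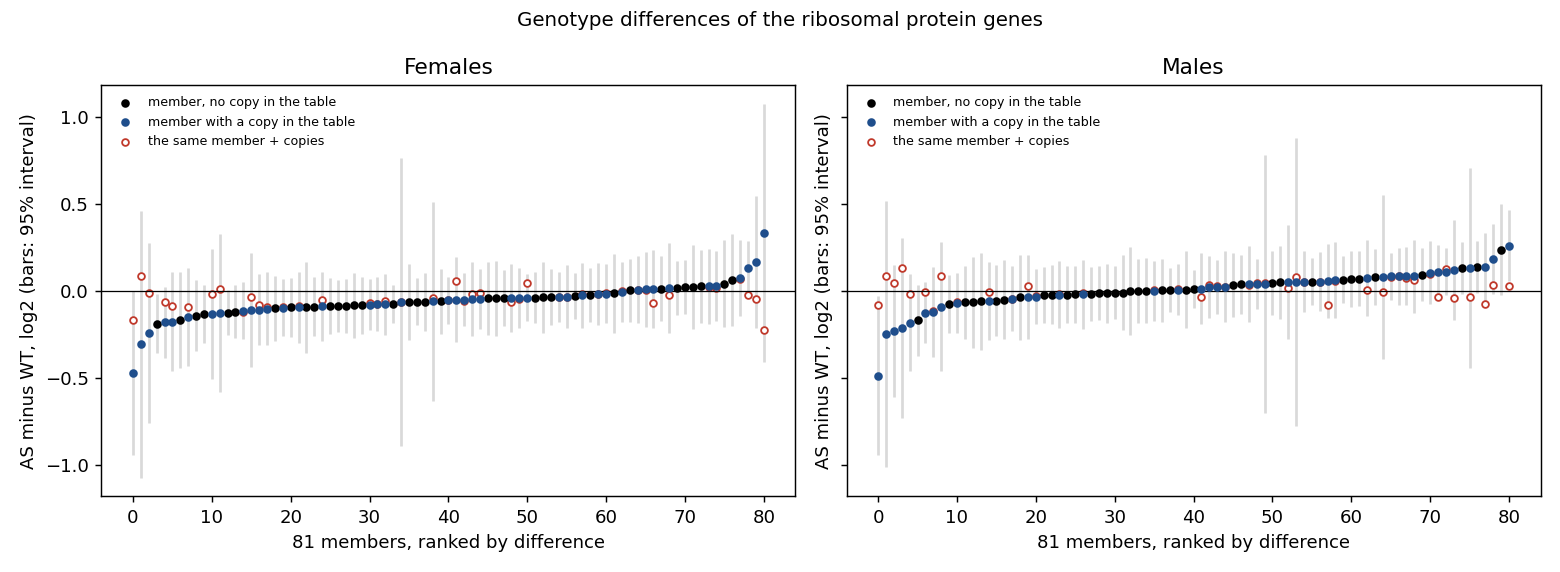
AS minus WT difference (log2) of each member, ranked within each sex, with 95% intervals as bars; filled points are members alone and open points are members summed with their copies. The largest differences alone, such as Rpl10 at -0.47 in females and Rpl28 at -0.49 in males, lie closer to 0 when summed.

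Summing narrowed the differences as a whole. Where copies hold most of the abundance, the summed difference is mainly theirs. The SD of the 81 differences was 0.0585 summed and 0.0972 alone in females, and 0.0639 summed and 0.107 alone in males. Members that differed by more than 0.2 in either direction numbered 1 summed and 4 alone in females, and 1 summed and 6 alone in males. Taking the 5 members furthest in each direction, 8 of these 10 had a copy in the table in females and 8 of 10 in males. On summing, the sign changed in 4 of the 10 in females and in 4 of the 10 in males. With the members alone, the 95% interval lay within 0.5 on either side of 0 for 72 of 81 members in each sex and for 75 over both.

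The test of whether the genotype difference itself depended on sex called no member (limma, smallest adjusted p = 0.987, 0% of all genes). In 60 of 81 members the male difference exceeded the female one, by a median of 0.065, and it was smaller in 21, against 49.5% of all genes. At an unadjusted p under 0.05 there were 3 members (Rpl10a, Rpl5 and Rpl23), against 3.77% of all genes. Without AS male 2 the count of members with a smaller male difference was 5, and without AS male 3 or WT male 3 it was 35 each time. Rpl10a, a large-subunit protein (chr17:28328471-28331033, plus strand), measured 4.52, 4.36 and 4.48 in AS females and 4.74, 4.54 and 4.64 in WT females, and 4.95, 4.68 and 4.85 in AS males and 4.79, 4.54 and 4.59 in WT males. AS females lay below every WT female, and the males overlapped. The interaction was 0.37 ± 0.13 (unadjusted p = 0.0170, adjusted p = 0.987), and Rpl5 had the same size, 0.37 ± 0.13 (unadjusted p = 0.0172). Rpl10a carried 10.6% of the abundance it shared with its copy Rpl10a-ps1. Summed with that copy, AS females measured 7.85, 7.80 and 7.74 and WT females 7.89, 7.79 and 7.90, so the genotypes overlapped.

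Between the sexes, no member was called in AS mice (limma, smallest adjusted p = 1.00, 0.0361% of all genes) or in WT mice (smallest adjusted p = 0.632, 0.0289% of all genes). Unadjusted p was under 0.05 in 2 members in AS mice and in 4 in WT mice, against 3.63% and 7.7% of all genes. In AS mice Rpl10a was higher in males than in females by 0.37 ± 0.09 (unadjusted p = 0.00203). Summed with its copy, Rpl10a measured 7.88, 7.67 and 7.97 in AS males and 7.85, 7.80 and 7.74 in AS females, so the sexes overlapped. In 3 members (Rpl10a, Rpl14 and Rpl27a) every AS male was above every AS female and in 0 below, against 4.99% and 3.49% of all genes. In WT mice 57 of 81 members were lower in males, against 48.8% of all genes, and without WT male 3 this was 33. In 5 members (Rpl5, Rpl7, Rpl7a, Rps26 and Rps4x) every WT male was below every WT female and in 0 above, against 6.62% and 8.12% of all genes. Rps4x, an X-linked small-subunit protein, measured 8.42, 8.37 and 8.33 in WT males and 8.43, 8.55 and 8.64 in WT females. The lowest of those females was WT female 1, the library low in Xist, and it lay just above the highest male. The difference was -0.17 ± 0.07 (unadjusted p = 0.0342, adjusted p = 0.632), and Rps4x overlapped between the sexes in AS mice.

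The rest of the translation machinery gave no call in either sex (limma, adjusted p of 0.05). In females, 27 of 32 initiation factors were lower in AS mice, the smallest p being that of Eif3m (-0.16 ± 0.09), a subunit of the eIF3 scaffold, with 0 at an unadjusted p under 0.05. In males, 23 of 32 were higher, the smallest p being that of Eif1 (0.16 ± 0.06), which guards start-codon choice. Eif1 was the 1 factor at an unadjusted p under 0.05, against 6.42% of all genes. Among 13 elongation and termination factors, 9 were lower in AS females and 8 were higher in AS males, with Eef2k, the kinase that slows elongation by phosphorylating eEF2, at -0.27 ± 0.12 in males. Of 9 further ribosome-associated genes, among them Fau, which encodes a ribosomal protein fused to a ubiquitin-like protein, 7 were lower in AS females and 6 higher in AS males.

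Of 45 genes that build ribosomes, 27 were lower in AS females and 29 were higher in AS males. At an unadjusted p under 0.05 (limma) there were 3 in each sex, 6.67%. Of all genes, 3.16% reached this in females and 6.42% in males. Polr1b, a subunit of the polymerase that transcribes ribosomal RNA, was at 0.38 ± 0.15 in females, and Utp15, of the small-subunit processome, at 0.22 ± 0.07 in males. Of 15 genes that include the Rps6k kinases, Mdm2, Larp1 and Myc, 10 were higher in AS females and 10 lower in AS males. Of 12 genes that act on stalled ribosomes, 6 were lower in AS females and 7 in AS males. The mitochondrial ribosome, a separate particle, had 45 of 77 genes lower in AS females and 42 of 77 lower in AS males. Nuclear oxidative phosphorylation genes had 64 of 87 lower in AS females and 44 of 87 in AS males.

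Other cell type lists differed in their group means. The choroid plexus list was lower in AS females in 21 of 22 genes, with a median of -0.92. It was higher in AS males in 22 of 22, with a median of 0.42. In males only AS male 2 was high, at a list mean of 2.87. AS males 1 and 3, at 1.38 and 1.33, lay below every WT male (1.39 to 1.54). The oligodendrocyte list was higher in AS females in 12 of 12 genes, with a median of 0.23. Library means of the choroid plexus, oligodendrocyte and meningeal lists overlapped between genotypes in both sexes. Meningeal markers were lower in AS females in 9 of 10 genes, with a median of -0.33, and higher in AS males in 7 of 10. Interneuron markers were lower in AS females in 11 of 12 genes, with a median of -0.20. Of the 12, 3 were at an unadjusted p under 0.05 (limma), against 3.16% of all genes. In 7 every AS female lay below every WT female, against 4.02% of all genes. Their library means ran from 5.51 to 5.56 in AS females and from 5.68 to 5.88 in WT females. Interneuron markers were lower in 8 of 12 in AS males and in 12 of 12 over both sexes. Excitatory neuron markers were higher in AS females in 8 of 12 genes and lower in AS males in 10 of 12, with a median of -0.13 in males. In males their library means ran from 5.95 to 6.00 in AS and from 6.02 to 6.36 in WT mice, without overlap. Microglial markers were higher in AS females in 10 of 12 genes and in AS males in 6 of 12, astrocyte markers in 3 of 12 and 7 of 12, and endothelial markers in 7 of 12 and 5 of 12. No gene of these lists was called. Their part in the members' differences was not tested. In the 4 libraries richest in choroid plexus genes the members' mean ran from 7.52 to 7.67, and in the other 8 it ran from 7.55 to 7.73.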

How the data were processed

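Per the submitters' processing notes, reads were handled with Trimmomatic, Bowtie2 and RSEM on GRCm38 (mm10), with no versions. The deposited table was read as the natural log of an RSEM abundance plus 1. Whether this is TPM or FPKM, the log base, the added constant and the normalization are not given in the sources used here. Values of 2 to 5 in the natural log recur in all 12 columns. Between 5 and 6 this held for 15.5% of values, and above 6 for 0%. The mean level of 61 of the 81 members lay above 5 on this scale. Were the base 2, every log2 difference of a gene alone would shrink by a factor of 0.693 (sums with copies would change otherwise), and all 81 members would still be tested.

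Values were divided by the natural log of 2. Genes under a mean abundance of 1 were left out (93), and limma 3.58.1 (R 4.3.3) with a variance trend fitted the 4 group means to 13858 genes, with Benjamini-Hochberg adjustment, calls at 0.05, standard errors and 95% intervals. On simulated data with independent noise for each gene, the fit was checked only for returning the planted differences on average. That check does not measure how well changes are called in genes that vary together. The labels do not say more than 1 mouse per library, and p-values measure the spread between these mice. Copies were found with blastn 2.17.0 on GENCODE M21 transcripts, a copy having at least 50% of its own transcript matched.

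Members, lists and tests were chosen with earlier results of these data known. Named members are the 5 with the largest difference each way for genotype, 3 for interaction and sex, the highest and lowest 5 in level, the 4 most and least variable, and paralogues. Others named are non-overlapping members, members with low correlation and examples with copies, chosen after their values were seen. Alternatives were another added constant, other filters, log base, 3 normalizations, library weights, a robust prior, fits of only the groups compared, each library left out, and, added after seeing the data, sums with copies and a fit leaving out the 4 libraries richest in choroid plexus genes. The values of 1 member are not reported here by name or drawn in the plots that name genes.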

Additional observations from a re-analysis of the deposited data

How the results depend on the processing

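No member was called in the 6 comparisons under the alternatives run, 24 for each comparison within a sex or genotype and 23 for both sexes and the interaction, which use all groups (smallest adjusted p = 0.316). No paired analysis was possible because the labels number no replicates and the numbers used only name the mice. Counts are members lower, of 81, and medians are log2. With library weights 16 were lower in males, 29 over both sexes (median 0.012, reversed), 9 in the interaction and 16 for sex in AS. With the 4 libraries richest in choroid plexus genes left out, the medians were -0.13 in females, 0.19 in the interaction and -0.092 for sex in WT, and 12 members were lower in males, 7 in the interaction and 10 for sex in AS. WT female 3 was then the only WT female left, so the values for females, the interaction and sex in WT rest on that library.

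With each library left out in turn, 55 to 69 were lower in females (median -0.088 to -0.020), 12 to 56 in males (-0.040 to 0.070), 30 to 68 over both sexes (-0.046 to 0.014), 5 to 35 in the interaction (0.0094 to 0.12), 9 to 47 for sex in AS (-0.0089 to 0.085) and 33 to 70 for sex in WT (-0.061 to 0.023). The 30 over both sexes, with a median of 0.014, came without AS male 2. For sex in AS, 9 came without AS male 2 and 47, with a median of -0.0089, without AS male 3. For sex in WT, 33 and a median of 0.023 came without WT male 3, and a median of 0.0030 without WT female 3. In males the median was also below 0 without AS male 1 (-0.0077) or AS male 3 (-0.034).

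Of 710 repeats of the 30 named differences, 691 kept their sign and 19 changed it. Summed with copies, these were in females Rpl27a -0.027, Rps12 -0.046, Rps2 -0.23 and Rps7 0.085. In males they were Rpl15 -0.077, Rps12 0.044, Rps6 0.13 and Rps7 0.085. Over both sexes they were Rpl27a -0.032, Rpl5 -0.027, Rps2 -0.091, Rps6 0.058 and Rps7 0.085. With the 4 libraries richest in choroid plexus genes left out, females gave Rpl22l1 -0.099, Rpl27a -0.029 and Rps12 -0.096, with WT female 3 the only WT female left. With 1 library left out, Rpl22l1 in females ran from -0.011 (without WT female 1) to 0.15, Rps2 in females from -0.0022 (without WT female 3) to 0.51, and Rps7 in males from -0.71 to 0.12 (without AS male 1). The cause was not tested. Depth is unknown, and with 3 mice per group the median standard error was 0.0855 within a sex.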
